A study of Mus musculus with 12 samples.

Results

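The 10 genes described here are used as markers and regulators of the primitive endoderm: the transcription factor genes Gata6, Gata4, Sox17, Sox7 and Hnf4a, the receptor and uptake genes Pdgfra, Cubn and Dab2, and the laminin genes Lama1 and Lamb1. They were chosen by name, and all 19 of their probes among the 41174 probes of the array were taken. Expression was measured in 12 single mouse morulae, 1 embryo per single-colour Agilent array. The siXist clones (n = 4) were male (C57BL/6 x DBA/2) F1 embryos made by transferring the nucleus of a Sertoli cell, the supporting cell of the testis, into an oocyte, and were injected with an siRNA against Xist at 6 to 7 h after activation, when they had 1 cell. The siCont clones (n = 4) were male Sertoli clones of the same F1 strain injected with a control siRNA at the same time. The IVF embryos (n = 4, males 1 and 3 and females 2 and 4) came from in vitro fertilisation of that strain and received no injection, so injection as well as cloning separates them from both clone classes. All classes were cultured in KSOM medium for 72 h and collected as whole morulae. Setting siXist against siCont clones asks what lowering Xist changed in cloned embryos, and each clone class was compared with IVF embryos to ask how clones differ from fertilised ones.

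The primitive endoderm is the layer of the late blastocyst that faces the cavity and later gives rise to the yolk sac. The morula has not formed it yet: in mouse embryos Gata6 protein is present in most cells at this stage, FGF signalling through ERK then holds Gata6 on in some inner cells while others become epiblast, and Pdgfra, Sox17, Gata4 and Sox7 mark the first group in turn. Dab2 and Cubn serve the uptake of material from outside the cell, and laminins build the basement membrane under the layer. The levels below therefore describe a stage before the lineage is set apart.

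Any promoter of Gata6 was left out of what follows. Of the other genes, 5 had a promoter in the RefSeq table (build GRCm38.p6), each given as the 250 bases before and the first 50 bases after a transcription start. These are shown for the receptor and uptake genes, whose levels the results below turn on, and for Hnf4a, because GATA factors are members of the set. Both strands were searched for forms of the site that GATA factors bind, namely the motif AGATAA, the form AGATAG that differs from it in the last base, the form TGATAA that differs from it in the first base, and the form TGATAG that differs in both, and matches are in capitals in the sense of the gene. The Cubn promoter (chr2:13491827-13492126, minus strand) and the Pdgfra promoter (chr5:75152001-75152300, plus strand) held no match. The first Dab2 start (chr15:6299539-6299838, plus strand) held 2 matches, one of them, TTATCT, being AGATAA on the other strand, and its second start (chr15:6386498-6386797, plus strand) held none. The first Hnf4a start (chr2:163506607-163506906, plus strand) held 1 match.
Cubn: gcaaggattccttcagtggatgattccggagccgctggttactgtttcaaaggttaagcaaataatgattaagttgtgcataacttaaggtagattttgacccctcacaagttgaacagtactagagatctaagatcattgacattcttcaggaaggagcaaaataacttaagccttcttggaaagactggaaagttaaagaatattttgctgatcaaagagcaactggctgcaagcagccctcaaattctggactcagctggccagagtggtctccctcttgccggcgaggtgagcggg
Dab2, first start: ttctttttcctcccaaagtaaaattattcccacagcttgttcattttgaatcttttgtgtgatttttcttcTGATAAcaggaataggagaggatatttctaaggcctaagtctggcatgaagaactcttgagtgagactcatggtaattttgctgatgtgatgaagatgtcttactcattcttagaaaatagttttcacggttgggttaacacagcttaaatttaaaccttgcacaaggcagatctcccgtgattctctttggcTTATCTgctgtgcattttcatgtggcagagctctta
Dab2, second start: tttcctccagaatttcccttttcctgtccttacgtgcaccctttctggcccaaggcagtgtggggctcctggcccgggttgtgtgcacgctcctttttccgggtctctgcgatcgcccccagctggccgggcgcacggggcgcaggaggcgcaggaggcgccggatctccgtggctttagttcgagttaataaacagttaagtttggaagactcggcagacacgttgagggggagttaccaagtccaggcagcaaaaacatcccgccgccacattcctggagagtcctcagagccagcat
Pdgfra: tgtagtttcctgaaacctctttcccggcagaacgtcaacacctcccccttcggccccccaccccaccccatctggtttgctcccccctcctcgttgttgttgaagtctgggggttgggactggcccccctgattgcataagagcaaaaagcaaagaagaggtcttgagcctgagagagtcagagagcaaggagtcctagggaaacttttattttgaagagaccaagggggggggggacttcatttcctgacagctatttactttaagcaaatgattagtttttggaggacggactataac
Hnf4a, first start: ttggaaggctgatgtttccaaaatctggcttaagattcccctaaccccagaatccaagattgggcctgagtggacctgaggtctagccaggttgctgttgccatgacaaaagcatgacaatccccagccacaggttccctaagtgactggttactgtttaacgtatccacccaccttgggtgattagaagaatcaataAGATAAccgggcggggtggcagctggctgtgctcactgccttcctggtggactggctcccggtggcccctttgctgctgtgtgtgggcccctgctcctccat
With the second Hnf4a start and the Lamb1 start, 2 of 7 promoters of these 5 genes, without Gata6, held a match. The share was 29.8% of the 32851 promoters of 300 bases in the table, and a match is a description of letters only.

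Levels are log2 processed signals minus the array's 75th percentile, so 0 is that percentile of the array's probes, and errors on levels are SDs over 4 embryos. A probe counts as detected where the scanner software marked it well above background, and it was tested if detected in 3 or more embryos of a class, which 13 of the 19 probes were. This left 8 of the 10 genes for the test, each represented by the tested probe with the highest mean, and set Sox7 and Lama1 aside. Between 50.7% and 61.4% of all probes were detected per array, the 75th percentile lay between 507 and 1133, and 0 spots were saturated. There were 3 slides, each scanned once and each holding the arrays of a single class, so a slide or scan effect and a class effect cannot be told apart here. Xist, the non-coding RNA that the siRNA targets, averaged 1.93 ± 0.48 in siXist clones and 4.97 ± 0.48 in siCont clones, a difference of -3.04 ± 0.48 (SE; limma, adjusted p = 0.110), and of -0.48 (adjusted p = 0.864) with the mean of its tested probes in place of the brightest. Of 12 genes listed as markers of the morula and of pluripotent cells 11 had a probe, and all 11 were detected on all 12 arrays. Among 15 markers of Sertoli cells on the array, 9 to 12 were detected per siXist clone, 9 to 10 per siCont clone and 8 to 10 per IVF embryo, with summed levels of 1.16 to 2.62, 1.71 to 2.70 and 1.90 to 2.57 in those classes. The Sertoli cell hormone genes Amh and Inha were detected on 0 of 12 arrays and Wt1 on 1 of 12. Of the 10 tested genes of this list 0 passed an adjusted p of 0.05. In siXist clones against IVF embryos 7 of the 10 lay below 0 (median -0.22, all features -0.23, of which 61.7% lay below 0). In siCont clones against IVF embryos 4 of the 10 did (median 0.17, all features -0.04, 51.9%). Trf, the transferrin gene, read higher in all siXist clones than in all IVF embryos (1.46 ± 0.49, limma, adjusted p = 0.233), and Clu, the clusterin gene, differed from IVF embryos by 1.41 ± 0.64 in siXist clones (0.364) and 1.43 ± 0.64 in siCont clones (0.367). Cldn11, a tight junction gene, was detected in 4 siXist clones, 1 siCont clone and 0 IVF embryos, and Sox9, which read lower in siXist clones, in 2, 4 and 4 (-5.51 ± 1.96 for siXist clones against IVF embryos, 0.254). The markers of cumulus and granulosa cells, which surround the oocyte, were detected for 3 to 5, 4 to 6 and 3 to 4 of 10 genes in siXist clones, siCont clones and IVF embryos, with summed levels of 1.88 to 2.90, 2.08 to 3.15 and 1.23 to 2.20. Of 4 tested, 0 passed. Ptx3, which cumulus cells make for their matrix, was detected in 0 siXist clones, 4 siCont clones and 1 IVF embryo. It passed the detection filter through the siCont clones alone, so its test is no support for a difference. It was at least 4.16-fold lower in siXist than in siCont clones (limma, adjusted p = 0.134, with n = 3 siXist clones because 1 spot was marked as an outlier) and differed by 3.02 ± 0.67 between siCont clones and IVF embryos (0.115). Foxl2, a granulosa cell factor, differed by -0.69 ± 0.27 between siXist and siCont clones without overlap (0.327). The part of these cells in the differences below was not tested, for Sertoli or for cumulus and granulosa cells.

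Transcripts of the primitive endoderm genes were present before the layer exists, but unevenly. At least 1 probe was detected for 8, 6, 7 and 7 of the 10 genes in siXist clones 1 to 4, for 8, 9, 8 and 10 genes in siCont clones 1 to 4, and for 9, 8, 9 and 9 genes in IVF embryos 1 to 4. Gata6, Gata4, Dab2, Lamb1, Cubn and Hnf4a were detected in all 12 embryos by at least 1 probe. For Gata4 and Hnf4a this was 1 probe with a signal close to the detection limit, and their other probes were not detected in every embryo. Pdgfra and Sox17 were missing from some embryos, and Sox7 and Lama1 from most. None of the 8 tested genes passed an adjusted p of 0.05 in any of the 3 comparisons (limma over all features, Benjamini-Hochberg adjustment), where the share called over all features was 0.0105% for siXist against siCont clones, 0.578% for siXist clones against IVF embryos and 0.415% for siCont clones against IVF embryos. The differences below are therefore measured sizes with their errors, not calls. Both comparisons with IVF embryos share those 4 embryos.

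**Figure D1:**
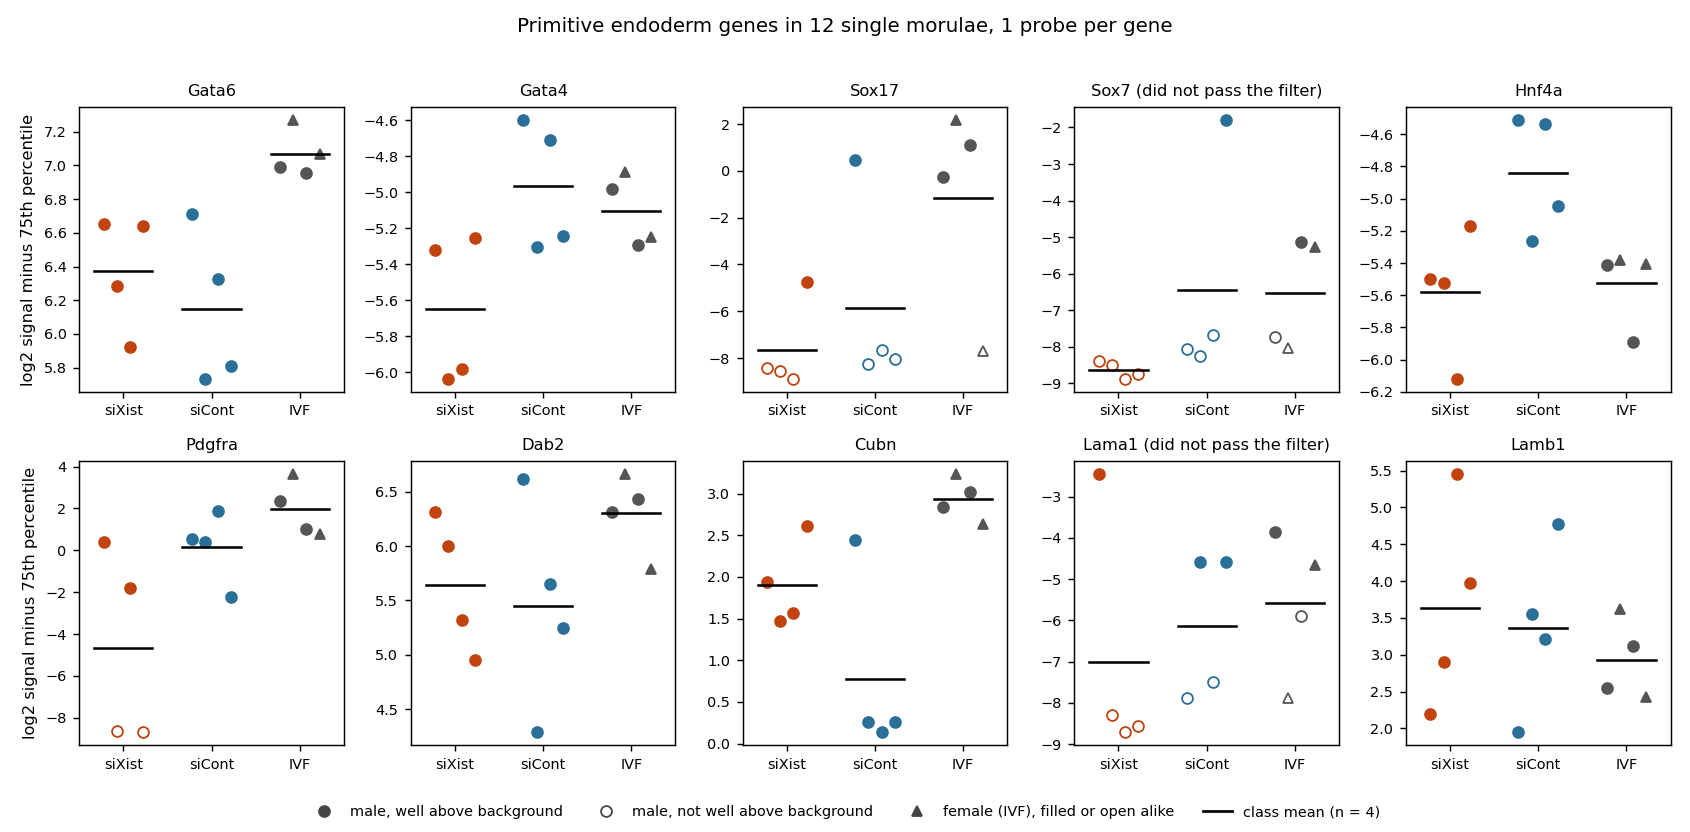
Level of each gene in each embryo, as log2 processed signal minus the array's 75th percentile (vertical axes, scaled separately per gene and not comparable between genes), for siXist clones, siCont clones and IVF embryos from left to right. Points are single embryos (triangles are females), open points were not well above background and lines are class means over 4 embryos; for Gata6 and Cubn all 8 clones lie below all 4 IVF embryos, and for Pdgfra 2 siXist clones are open points near the bottom of the axis.

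Gata6, the GATA factor that starts the primitive endoderm programme, was detected in every embryo and was lower in both clone classes than in IVF embryos. Its level was 6.65, 6.29, 5.92 and 6.64 in siXist clones 1 to 4, 6.71, 5.73, 6.33 and 5.81 in siCont clones 1 to 4, and 6.99, 7.27, 6.96 and 7.07 in IVF embryos 1 to 4. No clone reached the lowest IVF embryo, while the clone classes overlapped each other. The order of the class means was siCont (6.15 ± 0.46), siXist (6.38 ± 0.35) and IVF (7.07 ± 0.14). The siCont clones were 1.90-fold below IVF embryos (log2 difference -0.92 ± 0.32, limma, adjusted p = 0.265) and the siXist clones 1.62-fold below them (-0.69 ± 0.32, adjusted p = 0.371). The siXist clones differed from the siCont clones by 0.23 ± 0.32 (adjusted p = 0.750), less than the SE. In whole embryos, fewer cells with a transcript and less transcript per cell cannot be told apart, which holds for every gene here.

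A second tested Gata6 probe had the same order of classes. It read 0.65, 0.30, 0.39 and 0.93 in siXist clones, 0.57, -0.56, -0.04 and -0.39 in siCont clones, and 0.95, 1.44, 0.91 and 1.51 in IVF embryos. The siCont clones again lay wholly below the IVF embryos, and siXist clone 4 alone among the clones reached them. With every tested probe as a feature of its own, its difference was -1.31 ± 0.32 for siCont clones against IVF embryos (adjusted p = 0.142), -0.63 ± 0.32 for siXist clones against IVF embryos (adjusted p = 0.433) and 0.67 ± 0.32 for siXist against siCont clones (adjusted p = 0.407). The remaining Gata6 probe was detected in siXist clone 2 only, at -4.28.

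Gata4, a later GATA factor of the primitive endoderm that is also made in Sertoli and granulosa cells, was detected in every embryo at a signal close to the detection limit. Its level was -5.32, -6.04, -5.98 and -5.25 in siXist clones, -4.60, -5.30, -4.71 and -5.24 in siCont clones, and -4.98, -4.89, -5.29 and -5.25 in IVF embryos. The siXist clones 2 and 3 were lowest, and the classes overlapped in all comparisons. Before scaling, its signal was 14.3 to 28.7 over the 12 arrays, where the lowest signal marked as detected was 7.65 to 14.4 per array. The differences were -0.69 ± 0.32 for siXist against siCont clones (adjusted p = 0.374), -0.55 ± 0.32 for siXist clones against IVF embryos (0.472) and 0.14 ± 0.32 for siCont clones against IVF embryos (0.875). In the authors' table, whose scaling moves the median of all features, the difference between siXist and siCont clones was 0.45 and that between siCont clones and IVF embryos -0.96, so the direction of Gata4 in those comparisons depends on the scaling. Over the 12 arrays the level of Gata4 had an r of -0.83 with the log2 75th percentile that is subtracted from it, and its part in these differences was not tested. The cumulus and granulosa markers Ptx3 and Foxl2 also read lower in siXist than in siCont clones, as given above. Of the other markers tested in that list, Amhr2 differed by -0.15 ± 0.39 and Cyp19a1 by 0.12 ± 1.14. The other tested Gata4 probe was detected in 7 of 12 embryos and spread from -4.23 to -6.79 in siXist clones, from -2.63 to -7.34 in siCont clones and from -4.49 to -8.47 in IVF embryos.

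Sox17, an HMG-box factor that follows Gata6 in the primitive endoderm, was the gene with the most uneven detection among those tested. It passed the filter through the IVF embryos alone, so its tests with them are no support for a difference. Its test probe was detected in siXist clone 4 at -4.73 and in siCont clone 1 at 0.46. In IVF embryos 1 to 3 it read -0.28, 2.16 and 1.12, and in IVF embryo 4 it was not detected (-7.72). The other siXist clones lay between -8.89 and -8.45 and the other siCont clones between -8.27 and -7.66, all not detected. On this probe, then, 1 of 4 embryos in each clone class and 3 of 4 IVF embryos had a detected value, and each class overlapped the others. With values as measured the siXist clones differed from IVF embryos by -6.47 ± 2.41 (adjusted p = 0.274), the siCont clones from IVF embryos by -4.69 ± 2.41 (0.425) and the siXist from the siCont clones by -1.78 ± 2.41 (0.744). Raising undetected values to -5.60, the highest of the arrays' detection limits, brought these to -4.73, -3.43 and -1.30.

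The other tested Sox17 probe was detected in 1 of 4 siXist clones, 4 of 4 siCont clones and 3 of 4 IVF embryos, and passed the filter through the last 2 classes alone. It read -5.98, -6.51, -6.65 and -5.28 in siXist clones, -4.41, -5.04, -4.82 and -5.41 in siCont clones, and -5.01, -3.78, -3.79 and -5.17 in IVF embryos. All siXist clones lay below all IVF embryos (-1.67 ± 0.47, adjusted p = 0.182), the siCont clones overlapped the IVF embryos (-0.48 ± 0.47, 0.703), and the siXist and siCont clones overlapped (-1.19 ± 0.47, 0.352). In siCont clones 2 to 4 this probe was detected and the test probe was not, so the 2 probes disagree on whether the gene was present there. Another Sox17 probe was detected in 0 of 12 embryos.

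Sox7, a relative of Sox17 that appears last of the Sox factors in the layer, was detected in 0 of 4 siXist clones, in siCont clone 4 (-1.80), and in IVF embryos 3 and 4 (-5.12 and -5.26). It did not pass the filter. In the fit without a filter its differences were -2.18 for siXist against siCont clones (adjusted p = 0.379), -2.09 for siXist clones against IVF embryos (0.414) and 0.10 for siCont clones against IVF embryos (0.997). Since no siXist clone had a detected value, the sizes are given as bounds: with the siXist values raised to each array's detection limit and the other classes as measured, siXist clones were at least 1.08-fold below siCont clones and at least 1.01-fold below IVF embryos.

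Hnf4a, a nuclear receptor of the visceral endoderm, the tissue that the primitive endoderm becomes around the embryo, was read by its test probe close to the detection limit in every embryo. The level was -5.50, -5.53, -6.12 and -5.17 in siXist clones, -4.51, -5.26, -4.54 and -5.05 in siCont clones, and -5.41, -5.38, -5.89 and -5.40 in IVF embryos. All siCont clones lay above all IVF embryos, by 0.68 ± 0.32 (adjusted p = 0.383). The siXist clones lay below the siCont clones by 0.74 on the log2 scale with 1 overlapping embryo (-0.74 ± 0.32, adjusted p = 0.346) and differed from IVF embryos by -0.06 ± 0.32 (0.952). Before scaling, the signal was 16.3 to 20.6 in siXist clones, 21.9 to 30.4 in siCont clones and 14.1 to 16.6 in IVF embryos. Over the 12 arrays the scaled level had an r of -0.67 with the log2 75th percentile that is subtracted from it, whose part was not tested. In the authors' table the siCont clones were 0.41 below IVF embryos on the log2 scale (-0.41) and the siXist clones 0.39 above siCont clones, so both directions depend on the scaling. The means of the cumulus and granulosa markers Ptx3, Foxl2 and Amhr2 were likewise highest in siCont clones, and that of Cyp19a1 was highest in siXist clones. Ptx3 passed the filter through the siCont clones alone, and the part of these markers was not tested.

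The second tested Hnf4a probe ordered the classes differently. It was detected in all 4 IVF embryos, at -4.33, -3.44, -4.31 and -4.28, and otherwise only in siXist clone 3 (-5.42) and siCont clone 4 (-3.39). This probe passed the filter through the IVF embryos alone, so its tests are no support for a difference. Its sizes rest largely on undetected values in the clones. All siXist clones lay below all IVF embryos (-3.31 ± 1.11, adjusted p = 0.250), and the siCont clones differed from IVF embryos by -2.81 ± 1.11 (0.328), with siCont clone 4 above all of them and the other 3 below. With values as measured, the 2 Hnf4a probes gave opposite directions for siCont clones against IVF embryos, and their mean gave -1.06. Another Hnf4a probe was detected in 0 of 12 embryos.

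**Figure D2:**
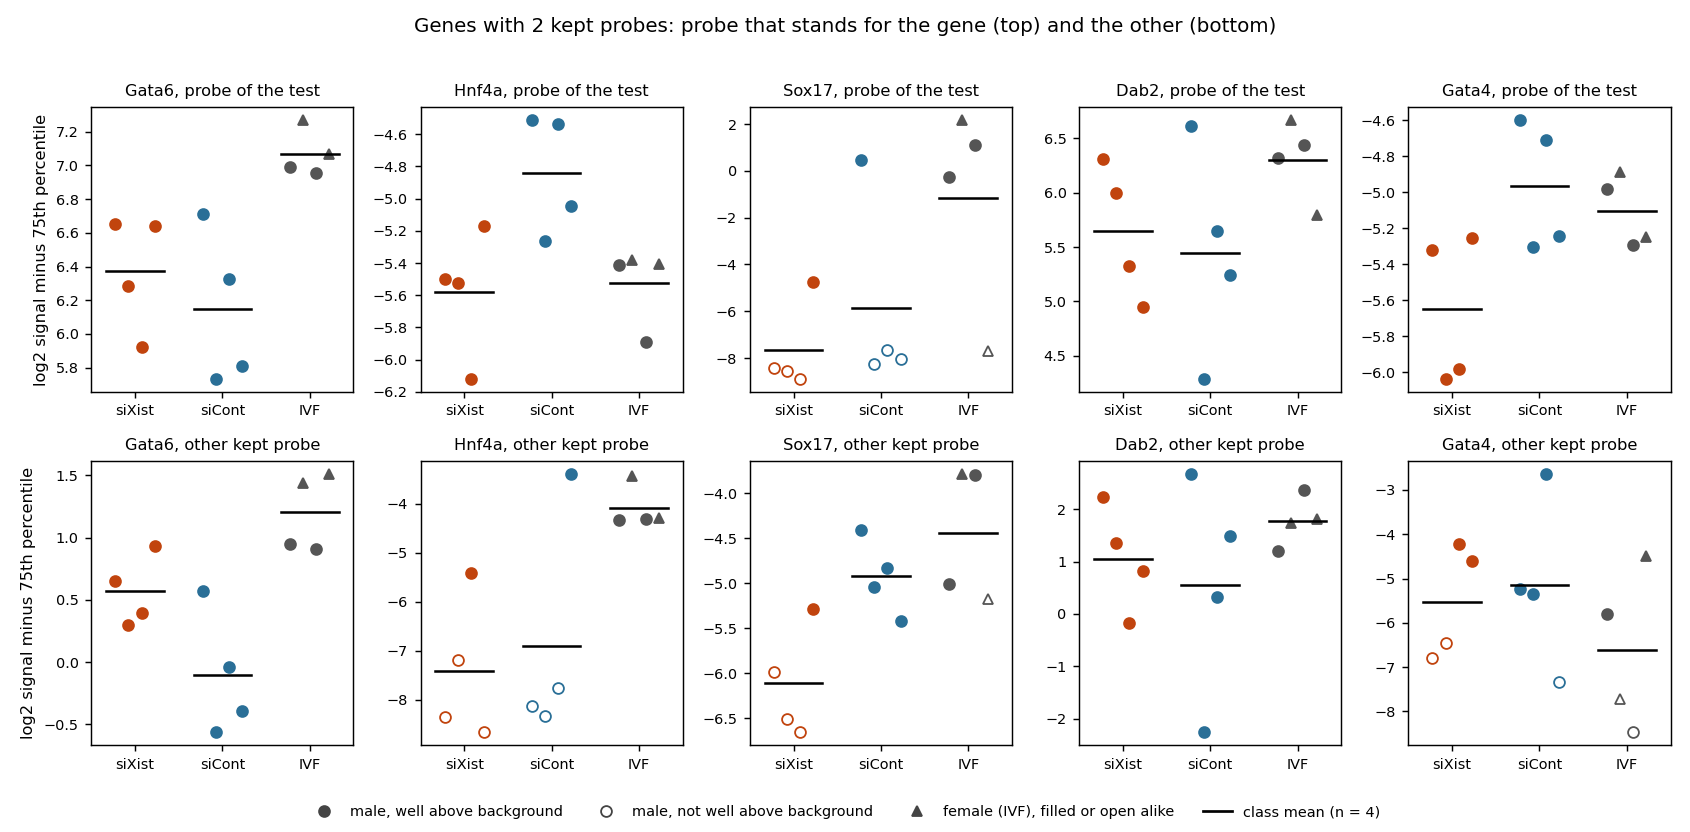
Level per embryo (log2 processed signal minus the array's 75th percentile, one axis per panel) for the 5 genes with 2 tested probes, with the probe used in the test in the top row and the other probe below it. Points are embryos, open where not well above background, and lines are class means over 4 embryos; the Gata6 pair keeps the order IVF, siXist, siCont, while the Hnf4a pair puts siCont clones above IVF embryos in the top row and 3 of 4 of them below in the bottom row.

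Pdgfra, the PDGF receptor that marks primitive endoderm precursors, was detected in every siCont clone and every IVF embryo but in 2 of 4 siXist clones. It passed the filter through the siCont clones and IVF embryos alone, so its tests with siXist clones are no support for a difference. It read 0.40 and -1.81 in siXist clones 1 and 3, and -8.63 and -8.69, not detected, in siXist clones 2 and 4. The siCont clones read 0.54, 0.42, 1.89 and -2.23, and the IVF embryos 2.33, 3.66, 1.04 and 0.79. All siXist clones lay below all IVF embryos, and the siXist and siCont clones overlapped. The difference was -6.64 ± 2.01 for siXist clones against IVF embryos (adjusted p = 0.199), -4.84 ± 2.01 for siXist against siCont clones (adjusted p = 0.338), and -1.80 ± 2.01 for siCont clones against IVF embryos (0.729). With undetected values raised to -5.60, the first was -5.10 (adjusted p = 0.166) and the second -3.30 (0.361). Leaving out siXist clone 1, the highest of its class, gave -8.33 (adjusted p = 0.0861) for siXist clones against IVF embryos and -6.53 (0.224) against siCont clones. Leaving out either siXist clone without a detected value made them smaller: -5.32 (0.339) and -3.52 (0.541) without clone 2, and -5.30 (0.311) and -3.50 (0.457) without clone 4. With normexp background correction and quantile scaling together they were -4.04 (0.134) and -2.38 (0.445). A second Pdgfra probe was detected in 0 of 12 embryos.

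Cubn, the receptor cubilin of the absorbing endoderm, was detected in every embryo and had the smallest adjusted p of these genes. Its level was 1.94, 1.47, 1.57 and 2.61 in siXist clones, 2.44, 0.26, 0.13 and 0.25 in siCont clones, and 2.83, 3.24, 3.02 and 2.63 in IVF embryos. All clones lay below all IVF embryos, siCont clones 2 to 4 lay lowest, between 0.13 and 0.26, and siCont clone 1 stood apart near the IVF embryos. The class means were 1.90 ± 0.52 in siXist clones, 0.77 ± 1.11 in siCont clones and 2.93 ± 0.26 in IVF embryos. The siCont clones were 4.46-fold below IVF embryos (-2.16 ± 0.54, adjusted p = 0.131). Without siCont clone 1 the difference was -2.71 with an adjusted p of 0.0209, the one value under 0.05 among the alternatives run for these genes. The siXist clones were 2.04-fold below IVF embryos (-1.03 ± 0.54, adjusted p = 0.419) and 2.18-fold above siCont clones (1.13 ± 0.54, adjusted p = 0.382), and in both cases the error leaves the difference short of the threshold.

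Dab2, an adaptor for clathrin-mediated uptake that works with megalin and cubilin, was detected in every embryo by both of its probes. The test probe read 6.31, 6.00, 5.32 and 4.95 in siXist clones, 6.62, 4.29, 5.65 and 5.24 in siCont clones, and 6.31, 6.67, 6.44 and 5.79 in IVF embryos. The ranges overlapped in all comparisons, with siCont clone 2 lowest and IVF embryo 2 highest. The differences were -0.66 ± 0.52 for siXist clones against IVF embryos (adjusted p = 0.584), -0.85 ± 0.52 for siCont clones against IVF embryos (0.50) and 0.20 ± 0.52 between siXist and siCont clones (0.876). Its second probe had the same signs (-0.72, -1.22 and 0.50) and spread from 2.68 in siCont clone 1 to -2.26 in siCont clone 2.

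Lamb1, the laminin beta chain of the basement membrane, was detected in every embryo, and its mean was higher in both clone classes than in IVF embryos. On this scaling that held for the test probe of none of the other 7 tested genes. With the mean of its probes, Gata4 was also higher in siXist (0.28) and siCont clones (0.81) than in IVF embryos. Lamb1 read 2.20, 2.91, 5.46 and 3.97 in siXist clones, 1.95, 3.55, 3.21 and 4.77 in siCont clones, and 2.55, 3.62, 3.11 and 2.43 in IVF embryos. The clones spread over a wider range than the IVF embryos and the classes overlapped. The differences were 0.70 ± 0.77 for siXist clones against IVF embryos (adjusted p = 0.699), 0.44 ± 0.77 for siCont clones against IVF embryos (0.835, and -0.66 in the authors' table) and 0.26 ± 0.77 between siXist and siCont clones (0.889). Without siXist clone 3 the first was 0.10 and the last -0.34.

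Lama1, the laminin alpha chain that the parietal and visceral endoderm lay down, was detected in 5 of 12 embryos: siXist clone 1 (-2.44), siCont clones 2 and 4 (-4.59 and -4.58) and IVF embryos 1 and 4 (-3.85 and -4.67). It did not pass the filter. Without a filter its differences were -0.87 for siXist against siCont clones (adjusted p = 0.768), -1.43 for siXist clones against IVF embryos (0.632) and -0.56 for siCont clones against IVF embryos (0.986).

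**Figure D3:**
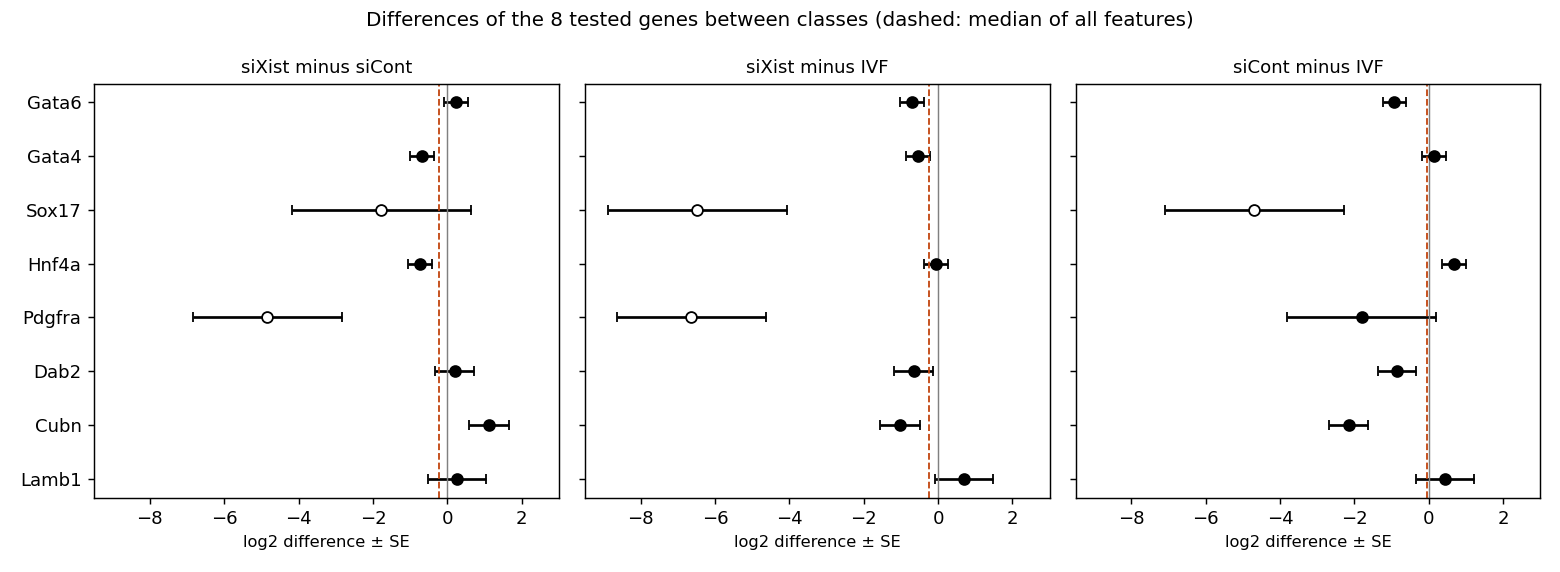
Log2 difference with its SE from the limma fit (horizontal axes) for the 8 tested genes in siXist clones minus siCont clones, siXist clones minus IVF embryos and siCont clones minus IVF embryos, with 4 embryos per class. Open points mark genes not detected on every array of both classes and dashed lines the median of all features (-0.21, -0.23 and -0.04); Pdgfra and Sox17 lie far to the left with wide errors and Cubn is at -2.16 in the last panel.

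Counted together, the 8 tested genes lay below 0 for 4 genes in siXist against siCont clones (median -0.25, all features -0.21, of which 60.2% lay below 0), for 7 genes in siXist clones against IVF embryos (median -0.68, all features -0.23, 61.7%) and for 5 genes in siCont clones against IVF embryos (median -0.89, all features -0.04, 51.9%). At an unadjusted p under 0.05 they numbered 2 in each comparison, all lower: Pdgfra and Hnf4a in siXist against siCont clones (of all features, 13.9% either way and 9.5% lower), Pdgfra and Sox17 in siXist clones against IVF embryos (13.9% and 8.84%), and Cubn and Gata6 in siCont clones against IVF embryos (13.6% and 6.73%). Classes that did not overlap numbered 0 of 8 in the first comparison (8.03% of all features either way, 6.42% lower). In siXist clones against IVF embryos they were Pdgfra, Gata6 and Cubn, all lower (13.1% of features either way, 9.58% lower). In siCont clones against IVF embryos they were Cubn and Gata6, lower (10.3% of features either way, 4.79% lower), and Hnf4a, higher (5.53%). Sox17 is in these counts although it passed the filter through the IVF embryos alone. Pdgfra is in them although it passed through the IVF embryos and siCont clones and not through the siXist clones. The counts therefore carry no weight as support. The authors' table shifted the median of all features to 0.93, -0.19 and -1.13 in the same order, and relative to those medians Cubn in siCont clones against IVF embryos was at -2.12 in both scalings.

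The genes also differed between embryos of one class. On this scaling IVF embryo 2, a female, was the highest of its class for all 8 tested genes, and the other female, IVF embryo 4, was the lowest for 5. The array of IVF embryo 2 had the lowest 75th percentile of its class (638), which is subtracted from every gene. Before scaling it was highest only for Sox17, Pdgfra and Lamb1. On the other tested probes it was highest for Sox17 and Hnf4a but not for Gata6, Gata4 and Dab2. The part of the scaling was not tested. Among siCont clones, clone 1 was highest for 6 of 8 genes (Gata6, Gata4, Sox17, Dab2, Cubn and Hnf4a) and clone 2 lowest for 5. Among siXist clones, clone 4 was highest for Gata4, Sox17, Cubn and Hnf4a, and clone 1 for Gata6, Pdgfra and Dab2. The arrays of siXist clones 1 and 4 had the lower 75th percentiles of their class (737 and 740, against 939 and 1133). Before scaling, siXist clone 2 was highest for Dab2, and the same clones stayed highest for the other genes just named. Without siCont clone 1, the siCont clones differed from IVF embryos by -1.11 for Gata6 (adjusted p = 0.171), -6.81 for Sox17 (0.175) and -1.24 for Dab2 (0.281). Leaving out IVF embryo 2 gave -2.22 (adjusted p = 0.719) for Sox17 and -2.01 (0.270) for Cubn in that comparison.

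Over the 12 embryos, which share arrays and scaling within a point, Gata6 followed Cubn with a Pearson r of 0.88 (0.74 after subtracting class means), Dab2 with 0.75 (0.66) and Sox17 with 0.71 (0.57), and ran against Lamb1 (-0.58, and -0.68 within classes). Its r with Gata4 was 0.42 over all embryos and 0.88 within classes. Pdgfra was the least tied to Gata6 of the receptor and uptake genes (0.35, and 0.11 within classes). Among all 12996 named features with a value in every embryo, those most like Gata6 were Tfcp2l1 (0.96), a transcription factor of pluripotent cells, Sart1 (0.96) and P2rx4 (0.95). The nearest to Cubn were Chn2 (0.96), Lrrfip2 (0.93) and Amdhd2 (0.92), and those nearest to Pdgfra were Junb (0.92), Ccnq (0.92) and Slc44a4 (0.90). Lamb1 was nearest to Atf3 (0.94), Fdxr (0.90) and Dsp (0.89), and Dab2 to C330018D20Rik (0.94), BC031181 (0.92) and Fbxo38 (0.92). For Sox17 the nearest were Akr1c12 (0.91), 1700012B07Rik (0.90) and Mettl18 (0.90), for Gata4 Muc5ac (0.96), Ace (0.95) and Olfr1009 (0.95), and those for Hnf4a included Tango6 (0.97) and Myrf (0.97). These r values are the highest of many and are given as a description.

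Lists of genes around this set were compared in the same way. Of 24 genes of the later primitive endoderm and its derivatives 17 were tested and 0 passed in any comparison, with medians of -0.04 in siXist against siCont clones, 0.07 in siXist clones against IVF embryos and 0.19 in siCont clones against IVF embryos. At an unadjusted p under 0.05 they numbered 3 lower, then 1 higher and 1 lower, then 2 higher and 1 lower in those comparisons. The shares over all features, either way, were 13.9%, 13.9% and 13.6%. Sparc, a basement membrane glycoprotein, averaged 1.23 ± 1.19 in siXist clones, 1.33 ± 1.88 in siCont clones and -1.87 ± 1.06 in IVF embryos, with no overlap between either clone class and the IVF embryos (3.10 ± 0.98, adjusted p = 0.215, and 3.21 ± 0.98, 0.217). Apoa1, an apolipoprotein of the visceral endoderm, was detected in 4 siXist clones, 2 siCont clones and 4 IVF embryos. Its siCont clones differed from IVF embryos by -2.67 ± 0.90 as measured (adjusted p = 0.259), by -1.62 with undetected values raised to -5.60 and by -0.86 with normexp and quantile scaling.

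Of 26 tested genes of FGF and ERK signalling, the pathway that holds the primitive endoderm programme on, 0 passed in any comparison. In siXist against siCont clones 19 of 26 lay below 0 (median -0.56, where 60.2% of all features lay below 0), and in siXist clones against IVF embryos 21 of 26 (median -0.54, all features 61.7%), against 11 of 26 in siCont clones against IVF embryos (median 0.19, all features 51.9%). At an unadjusted p under 0.05, 6 were lower in the first comparison (9.5% of all features) and 3 were lower in the second (8.84%). In the last, 1 was higher and 0 were lower (13.6% of all features either way). Etv5, an ERK target, averaged -3.30 ± 0.37 in siXist clones and -1.25 ± 0.70 in IVF embryos without overlap (-2.05 ± 0.47, adjusted p = 0.0983). Dusp6, the phosphatase that ERK induces against itself, differed by -5.37 ± 2.04 between siXist and siCont clones (0.318), with siXist clone 3 not detected, and by -3.08 (0.464) without that clone. Of 5 listed genes of PDGF ligands and the partner receptor Pdgfrb, 4 were tested and 0 passed. At an unadjusted p under 0.05 they numbered 0 in siXist against siCont clones (13.9% of all features). Against IVF embryos they numbered 2 in siXist clones (13.9%), Pdgfc higher and Pdgfd lower, and 1 in siCont clones (13.6%), Pdgfd lower. Pdgfc was detected in 4 siXist clones, 3 siCont clones and 2 IVF embryos, so it passed the detection filter through the clones alone. Its test is no support for a difference (siXist clones against IVF embryos 3.37 ± 1.38, limma, adjusted p = 0.317). Pdgfa, a ligand of Pdgfra, averaged 6.69 ± 0.35 in siXist clones, 5.16 ± 1.39 in siCont clones and 5.29 ± 1.48 in IVF embryos. Pdgfd was detected in 0 siXist clones, 0 siCont clones and 3 IVF embryos, and passed the detection filter through the IVF embryos alone, so its test is no support for a difference (siXist clones against IVF embryos, adjusted p = 0.147). With siXist clones at the detection limit of each array and IVF embryos as measured it was at least 2.76-fold lower in siXist clones, and with all undetected values raised to the higher -5.60 the log2 difference was -1.09 (adjusted p = 0.430).

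Among partners in the basement membrane and in uptake 11 of 12 listed genes were tested and 0 passed. At an unadjusted p under 0.05 they numbered 1 in siXist against siCont clones (13.9% of all features). In siXist clones against IVF embryos they numbered 2 (13.9%), and in siCont clones against IVF embryos 3 (13.6%). Lrpap1, the chaperone of the megalin family, read lower in siCont clones than in IVF embryos without overlap (-1.12 ± 0.34, adjusted p = 0.209, and -0.72 with the mean of its probes). Lrp2, which encodes megalin, the receptor that takes up ligands with cubilin, averaged 6.34 ± 0.94 in siXist clones, 5.07 ± 1.23 in siCont clones and 4.86 ± 1.15 in IVF embryos, an order unlike that of Cubn. The epiblast list, the alternative fate of inner cells, had 9 of 12 genes tested and 0 passed. At an unadjusted p under 0.05 they numbered 0, 2 and 4 in the same order of comparisons (13.9%, 13.9% and 13.6% of all features). In siXist against siCont clones 5 of the 9 lay below 0 (median -0.11, all features 60.2%). Against IVF embryos 8 of the 9 did in siXist clones (median -0.76, 61.7%) and 8 of the 9 in siCont clones (median -0.91, 51.9%). The 8 primitive endoderm genes had medians of -0.25, -0.68 and -0.89 in that order. The epiblast counts include Sox2. Sox2, an epiblast factor, was detected in 1 siXist clone, 1 siCont clone and 4 IVF embryos. It was tested through the IVF embryos alone, so its test is no support for a difference (-6.89 ± 2.09 for siXist clones against IVF embryos, adjusted p = 0.199, and -4.63 with undetected values raised to -5.60). Of 12 trophectoderm genes, the outer lineage of the embryo, 1 passed, Eomes in siXist clones against IVF embryos (0.578% of all features). At an unadjusted p under 0.05 they numbered 1 lower, then 1 lower, then 1 higher and 3 lower in the same order of comparisons. The shares over all features, either way, were 13.9%, 13.9% and 13.6%. Eomes was detected in 1 siXist clone, 1 siCont clone and 4 IVF embryos. It passed the detection filter through the IVF embryos alone, so its test is no support for a difference. Eomes averaged -7.16 ± 1.45 in siXist clones, against -1.19 ± 0.54 in IVF embryos (-5.97 ± 0.98, limma, adjusted p = 0.0318), and -6.41 ± 1.99 in siCont clones (-5.23 ± 0.98, 0.0600). These sizes rest on values of 3 clones per class that were not detected: with undetected values raised to -5.60 they were -4.43 in siXist and -3.90 in siCont clones, and with normexp background correction and quantile scaling -2.22 and -2.10. For siXist clones against IVF embryos the adjusted p of Eomes was under 0.05 in 17 of 26 alternatives and above it in 9, from 0.00333 to 0.121. Those 9 included leaving out any 1 of the IVF embryos (0.0791 to 0.121), siXist clone 2 (0.0859) or siXist clone 3 (0.0955), and the authors' table (0.0743). These counts are no support for a difference either.

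**Figure D4:**
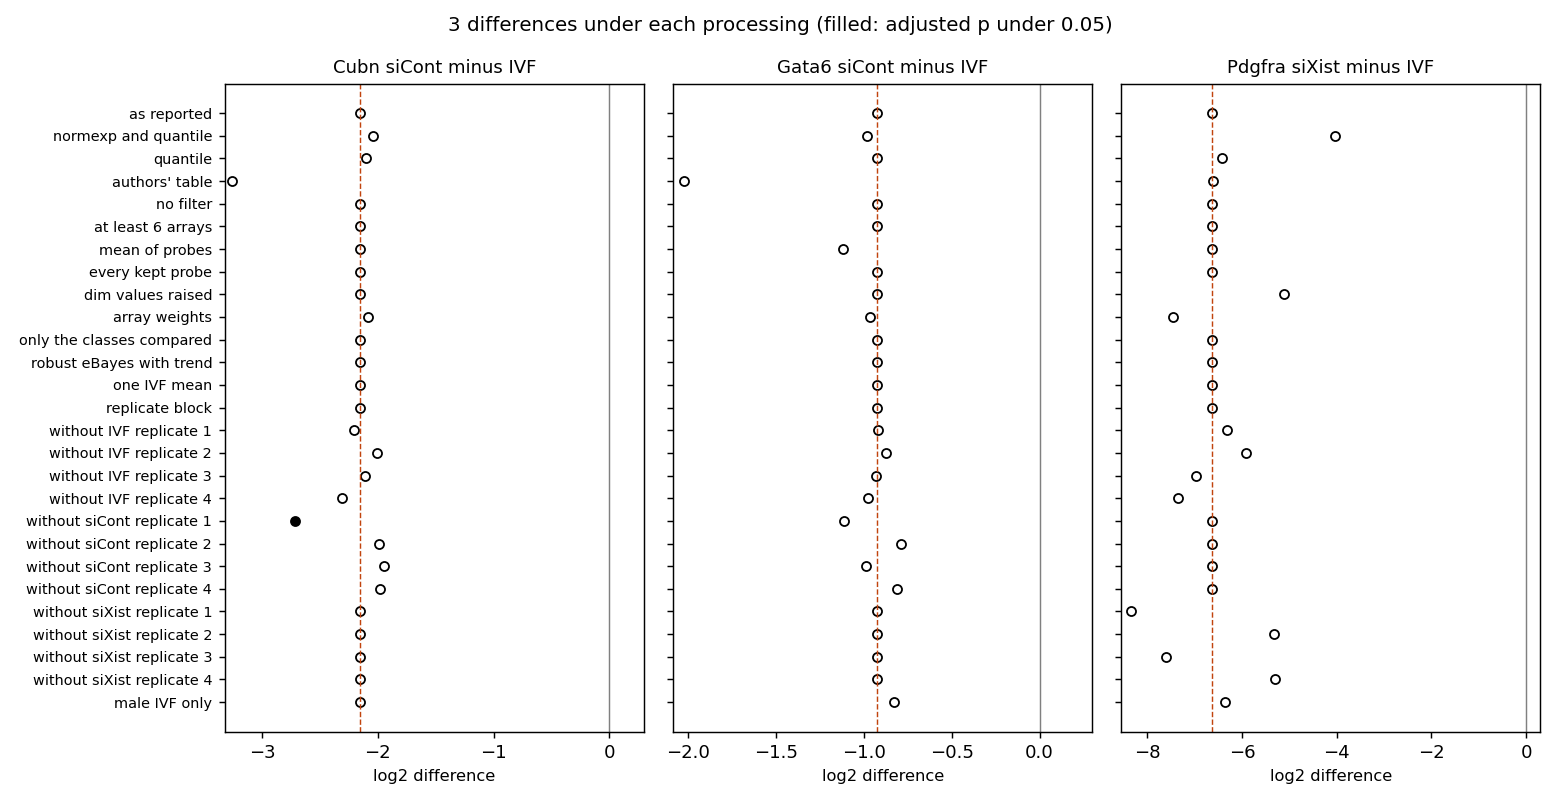
Log2 difference (horizontal axes) of Cubn and Gata6 in siCont clones minus IVF embryos and of Pdgfra in siXist clones minus IVF embryos, recomputed under each alternative processing named at the left. Filled points have an adjusted p under 0.05 and dashed lines mark the values as reported; every point lies below 0, and the single filled point is Cubn without siCont clone 1 (-2.71).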

How the data were processed

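Total RNA of single morulae was extracted with TRIzol, amplified in 2 rounds and labelled with Cy3, per the labels' protocols. Per the file headers, the deposited scanner files hold the processed intensity of each spot from Agilent Feature Extraction 10.5.1.1 with a grid built on mm9. The authors' deposited table holds log2 values: comparison with the scanner files gave the log2 processed signal shifted by 1 constant for each array and centred on the median of each probe, and the origin of the constants is unknown. Spots marked as outliers were left out, spots of a probe averaged, and 26888 of 41174 probes (65.3%) named through a RefSeq table for GRCm38.p6, used for names, chromosomes and promoters. The 75th percentile is over non-control probes. Probes detected in 3 or more embryos of a class were kept (24839), and the brightest kept probe stood for a gene (19044 features, 19037 in comparisons with IVF embryos). All 12 arrays were fitted in limma 3.58.1 (R 4.3.3) with means for male IVF, female IVF, siCont and siXist (8 residual degrees of freedom); IVF sexes had equal weight, and tests were two-sided with Benjamini-Hochberg adjustment over all features at 0.05. The script was tested on simulated data. Alternatives changed background correction (normexp, offset 50, with quantile scaling), scaling, filter, probe choice, weights, spread, IVF sex, replicate block and each embryo in turn. The genes, lists (up to 4 genes named per list and comparison, by p) and tests were chosen with earlier results of these data known. All 10 genes and the 3 features most like each tested one were to be named; some genes that these rules select are not reported here, and counts include them. The series' design text speaks of biological replicates for the siRNA groups, and the labels do not say whether embryos of a class came from separate collections, so p-values measure the spread between these embryos.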

Additional observations from a re-analysis of the deposited data

Results flagged for a closer look

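In 8 of 57 groups of 4 embryos (19 probes in 3 classes) 1 embryo stood far from the other 3 by Dixon's test at 95%, where chance gives about 1 in 20. Sox17 stood out on its test probe in siXist clone 4 (-4.73, others -8.89 to -8.45) and in siCont clone 1 (0.46, others -8.27 to -7.66), in each class the 1 embryo where it was detected. Sox7 did so in siCont clone 4 (-1.80, others -8.25 to -7.68) and Lama1 in siXist clone 1 (-2.44, others -8.71 to -8.30), again the 1 detected value. Cubn was detected in all siCont clones, and clone 1 (2.44) lay above the other 3 (0.13 to 0.26). The test probe of Hnf4a was low in IVF embryo 3 (-5.89, others -5.41 to -5.38). Its second probe was high in siCont clone 4 (-3.39, others -8.33 to -7.76, not detected) and in IVF embryo 2 (-3.44, others -4.33 to -4.28).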

How the results depend on the processing

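For the 8 tested genes in 3 comparisons, 616 values were computed under the alternatives; 1 passed an adjusted p of 0.05 (Cubn, siCont clones against IVF embryos without siCont clone 1), and 14 of 24 differences kept their sign in all of those run. The count of features called in siXist against siCont clones was 2, and became 0 with normexp and quantile scaling together (2111 at an unadjusted p under 0.05), 4 with quantile scaling alone, 19 in the authors' table, 5 with every kept probe, 4 with dim values raised, 12 with only the classes compared, 5 with one IVF mean and 8 to 56 with 1 embryo left out (56 without siXist clone 1). In siCont clones against IVF embryos it was 79, and 45 under the filter of at least 6 arrays, 18 with male IVF embryos only and 33 to 106 with 1 embryo left out. In siXist clones against IVF embryos it was 110, and 42 in the authors' table, 51 under the filter of at least 6 arrays, 248 with array weights, 21 with male IVF embryos only and 34 to 127 with 1 embryo left out. Embryos with the same replicate number did not pair (r -0.153 to 0.064 over 12 pairs, and 1 of 12 arrays was best with its own number); with the replicate block the 3 counts were 0, 12 and 13, in that order, and no call of the 8 genes changed. Of the calls, the share higher was 54.4% for siCont clones against IVF embryos, and 43.6% with normexp and quantile scaling together, and 12.7% in the authors' table; for siXist clones against IVF embryos it was 49.1%, and 61% with quantile scaling alone.

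Reversed signs, none past the threshold, were as follows, and the cause was not tested. In the authors' table, Gata4 (0.45) and Hnf4a (0.39) reversed in siXist against siCont clones, and Gata4 (-0.96), Lamb1 (-0.66) and Hnf4a (-0.41) in siCont clones against IVF embryos. Relative to the median of all features these did not reverse. Gata4 was at -0.47 as reported and -0.48 in the authors' table, and Hnf4a at -0.53 in both, in siXist against siCont clones. In siCont clones against IVF embryos Gata4 was at 0.18, Lamb1 at 0.48 and Hnf4a at 0.72 in both. With the mean of probes, Hnf4a reversed in siCont clones (-1.06) and Gata4 in siXist clones (0.28) against IVF embryos. Hnf4a in siXist clones against IVF embryos was 0.13 with quantile scaling, 0.047 with array weights, 0.072 with male IVF embryos only and -0.19 to 0.12 with 1 embryo left out. In siXist against siCont clones, Lamb1 was -0.066 with array weights and -0.34 to 0.74 with 1 embryo left out, Sox17 -2.75 to 0.33 and Dab2 -0.19 to 0.58; Lamb1 in siCont clones against IVF embryos was -0.027 to 0.92. Of 11 differences of other genes named above (283 values under the alternatives), 0 reversed. Xist passed in 3 of 25 alternatives (adjusted p 0.0257 to 0.864), Eomes in siCont clones against IVF embryos in 6 of 26 (0.00762 to 0.188), and Etv5 and Pdgfd in siXist clones against IVF embryos in 1 each. Signals near background limit Gata4, Sox17, Sox7, Lama1 and Hnf4a.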
